A study of Mus musculus with 2 samples.

Results

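The 8 genes described here make, sense, carry and remove extracellular adenosine. They are the ectonucleotidase genes Entpd1 (CD39) and Nt5e (CD73), the adenosine receptor genes Adora2a, Adora2b and Adora3, the adenosine-consuming enzyme genes Ada and Adk, and the nucleoside transporter gene Slc29a1. They were chosen by gene name, and each of the 8 names matched 1 of the 55401 gene rows of the table. RNA was sequenced after poly(A) selection from myeloid-derived suppressor cells (MDSCs), immature neutrophil-like and monocyte-like cells that restrain T cells in tumours. The cells came by magnetic sorting from 8-week-old C57BL/6 mice carrying tumours of the colon carcinoma line MC38 and then shared a culture with MC38 cells for 24 h. Both genotypes carried floxed Mettl3 alleles (Mettl3fl/fl), which Cre can excise, and 1 of them also carried LysM-cre, a Cre driven from the lysozyme gene of myeloid cells. Mettl3 is the catalytic part of the enzyme that methylates adenosines in messenger RNA (N6-methyladenosine, m6A). The treatment label of the LysM-cre sample reads MC39 where that of the control reads MC38. How many mice went into a library is not in the labels.

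Each genotype had 1 library, so no difference has a replicate check and no p-value is given. The floxed control library held 59506878 counts, and the library labelled LysM-cre, called the Cre-labelled library from here on, held 59393864. Mettl3 itself stood at 4.16 FPKM (fragments per kilobase of gene, scaled to library depth) in the control library and 3.92 in the Cre-labelled library, on 1413 and 1333 counts. Their ratio after scaling counts to the library total (CPM ratio) was 0.945, with a 95% interval of 0.876 to 1.02, so the gene-level value does not show the deletion. All intervals below are exact and cover counting error only. Defining neutrophil genes were abundant in both libraries, with S100a9 at 6078 and 5477 FPKM. B and T cell genes were present as well, with Cd79a at 74.9 and 67.3 FPKM and Cd8a at 45.0 and 44.4. In bulk RNA of such a mixture, fewer cells of a type and less RNA per cell cannot be told apart.

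Cells under stress or dying in a tumour release ATP. CD39 on the cell surface removes phosphates from ATP and ADP to leave AMP, and CD73 turns AMP into adenosine. Adenosine then acts through G protein-coupled receptors. The products of Adora2a and Adora2b raise cyclic AMP and are known for dampening T cells and turning myeloid cells towards suppression, whereas that of Adora3 couples to inhibitory G proteins. The transporter ENT1, the product of Slc29a1, carries adenosine across the membrane. Adenosine ends when Ada deaminates it to inosine or when Adk phosphorylates it back to AMP.

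The 8 genes covered a wide range of levels, and most lay close together in the 2 libraries. By FPKM, which is per gene length, Entpd1 was the highest in each library and Adora3 the lowest. Adora2b was the only member that differed by 1.5-fold or more in CPM ratio, and it was higher in the Cre-labelled library. The background is close to that count. Of 14573 rows with at least 100 counts summed over both libraries, a minimum all 8 members passed, 12.3% differed by 1.5-fold or more, 6.33% higher and 5.94% lower. Thus 1 of 8 members past this fold is about what the whole table gives. Among the 12124 protein-coding rows of that set 8.98% differed by this fold, 4.74% being higher. At 2-fold no member was past, against 4.78% of rows, and higher by 25% or more were 2 members, Adora2b and Adora3, against 13.7% of rows. Among the members 3 were higher and 5 lower, and their median log2 CPM ratio was −0.07, beside 0.00 over all rows with that minimum.

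**Figure D1:**
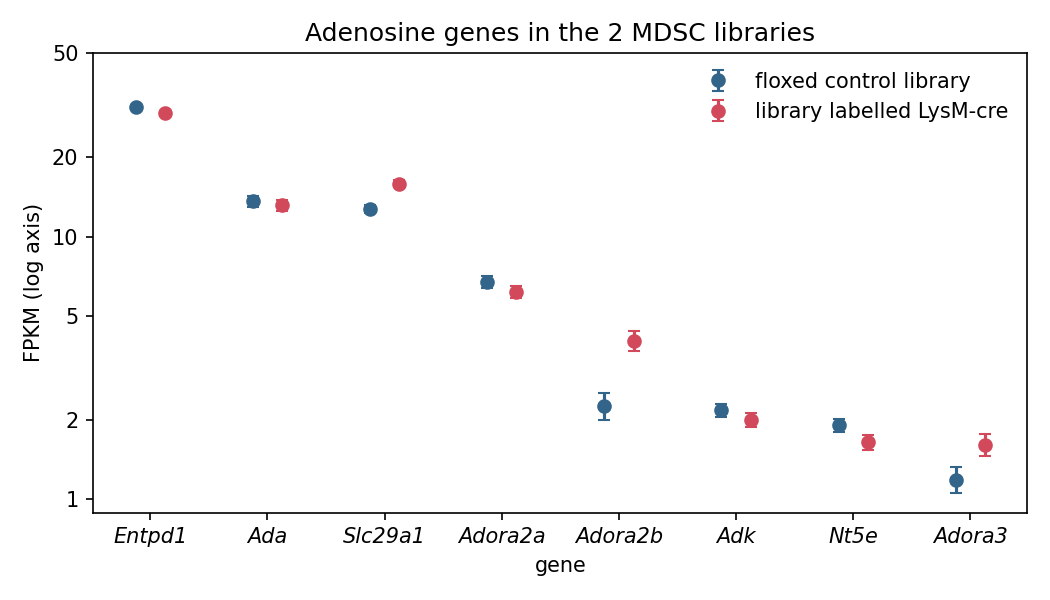
Level of each of the 8 genes in FPKM on a log axis, in the floxed control library (blue) and the Cre-labelled library (red), in order of the control level. Bars are 95% intervals from the counts (counting error only). Entpd1 is the highest in both libraries, and the widest gap between the colours is at Adora2b.

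Entpd1 (ENSMUSG00000048120, plus strand, mm10 chr19:40612366-40741602) had the highest level of the 8 and the most counts. It stood at 31.2 FPKM in the floxed control library and 29.5 FPKM in the Cre-labelled library, on 11634 and 10980 counts. This is 5.44% lower in the Cre-labelled library (CPM ratio 0.946, 95% interval 0.921 to 0.971), a small difference that the high count resolves from counting error. Of the rows with at least 100 summed counts, 89.1% had a lower FPKM than Entpd1 in the control. A pseudogene row inside an Entpd1 intron on the same strand, Gm8783, held 307 and 98 counts and shared no annotated exon base with Entpd1. With all same-strand overlapping rows added, the Entpd1 ratio was 0.930.

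Nt5e (ENSMUSG00000032420, plus strand, chr9:88327197-88372092) was far less abundant than Entpd1 and had the lowest ratio of the 8. It stood at 1.91 FPKM in the control library and 1.65 FPKM in the Cre-labelled library, on 1099 and 945 counts. The CPM ratio was 0.862 (95% interval 0.789 to 0.941). Entpd1 FPKM was thus 16.3 times that of Nt5e in the control library and 17.9 times in the Cre-labelled library. The Entpd1 to Nt5e count ratio changed 1.10-fold between libraries (95% interval 1.00 to 1.20), a value in which library scaling cancels. The CD39 gene was therefore represented by much more transcript per length than the CD73 gene, in both libraries. Nt5e is not the whole of the adenosine-making step, since the product of Alpl, described below, can also release adenosine from AMP. B cells are known to carry CD73, and 7 of 8 B cell markers were lower in the Cre-labelled library. The summed FPKM of the B cell markers was 198.9 in the control library and 182.4 in the Cre-labelled library, and none was at 0. Of 9 T cell markers 5 were higher and 4 lower, with a sum of 251.7 and 263.2 FPKM. The part of B and T cells in the Nt5e difference was not tested.

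The sequence before the Entpd1 start is shown because Entpd1 was the most abundant member. It is the 250 bases upstream of the first RefSeq start site (GRCm38.p6, plus strand, chr19:40612116-40612365), written 5′ to 3′ in lower case. Capitals mark matches, on either strand, to the cyclic AMP response element half-site TGACG, the hypoxia response element core ACGTG or the GC box GGGCGG.
Entpd1: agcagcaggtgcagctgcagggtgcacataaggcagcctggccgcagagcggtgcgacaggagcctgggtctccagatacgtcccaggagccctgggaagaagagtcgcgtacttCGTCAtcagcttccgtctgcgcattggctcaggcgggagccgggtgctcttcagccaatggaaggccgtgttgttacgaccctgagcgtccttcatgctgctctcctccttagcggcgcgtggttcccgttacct
The single match here is CGTCA, the half-site read on the other strand. The second RefSeq start of Entpd1 also had 1 half-site in its window and no match to the other motifs. Of 32851 such windows over all RefSeq starts in the promoter table, 17.8% held the half-site, 16.6% the hypoxia core and 32.7% the GC box.

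Among the receptors, Adora2b and Adora3 were higher in the Cre-labelled library while Adora2a was slightly lower. Adora2b (ENSMUSG00000018500, plus strand, chr11:62248984-62266453) encodes the low-affinity receptor, which responds when adenosine is abundant. It stood at 2.25 FPKM in the control library and 3.995 FPKM in the Cre-labelled library, on 278 and 492 counts. It was 77.3% higher (CPM ratio 1.77, 95% interval 1.53 to 2.06). No other row overlapped it on either strand. For scale, of 3107 rows with summed counts from 385 to 1540, which brackets the 770 of Adora2b on each side, 7.82% were 1.5-fold or more higher. The interval describes reads of this pair of libraries and not the genotypes.

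The 250 bases before the Adora2b start (GRCm38.p6, plus strand, chr11:62248734-62248983) are shown because it was the member past the fold, with capitals as above.
Adora2b: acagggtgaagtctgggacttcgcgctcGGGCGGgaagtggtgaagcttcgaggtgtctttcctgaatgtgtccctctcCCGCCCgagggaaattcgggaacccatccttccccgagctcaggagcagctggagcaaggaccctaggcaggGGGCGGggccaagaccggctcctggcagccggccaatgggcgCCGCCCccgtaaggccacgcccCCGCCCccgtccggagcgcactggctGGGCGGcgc
All 6 matches are GC boxes, read as GGGCGG or CCGCCC, and neither the half-site nor the hypoxia core occurs in these letters. Of all windows, 32.7% held at least 1 GC box and 0.886% held 6 or more, a cut-off set by this window's own number. Windows were found for 7 of the 8 members, and Adora2a had none. The GC box was not particular to Adora2b. It was also in 1 of 1 windows of Nt5e and of Ada, 2 of 2 of Adk and 4 of 8 of Slc29a1. The half-site was in 2 of 2 windows of Entpd1, 1 of 2 of Adk and 1 of 8 of Slc29a1. The hypoxia core was in 3 of 8 of Slc29a1 and in no other member's window.

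Adora2a (ENSMUSG00000020178, plus strand, chr10:75316877-75334784), the gene of the high-affinity receptor, was the most abundant receptor gene. It stood at 6.72 FPKM in the control library and 6.14 FPKM in the Cre-labelled library, on 1376 and 1255 counts (CPM ratio 0.914, 95% interval 0.846 to 0.987). Adora3 (ENSMUSG00000000562, plus strand, chr3:105870858-105908926) stood at 1.18 FPKM in the control library and 1.61 FPKM in the Cre-labelled library, on 296 and 401 counts (CPM ratio 1.36, 95% interval 1.17 to 1.58). Its row overlaps Tmigd3 on the same strand, with 779 annotated exon bases in common, and Tmigd3 held 108 and 156 counts. With overlapping rows summed, the ratio at Adora3 was 1.38, as large as with the row alone. Adora1, the remaining receptor gene of the family, was nearly silent, with 24 counts in the control library and 16 in the Cre-labelled library (0.06 and 0.04 FPKM).

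The make-up of the receptor transcripts differed between the libraries. The 3 receptor genes summed to 10.2 FPKM in the control library and 11.7 FPKM in the Cre-labelled library. Adora2a was 66.2% of that sum in the control library and 52.3% in the Cre-labelled library. Adora2b was 22.2% and 34.0%, and Adora3 was 11.7% and 13.7%. Adora2a thus remained the larger part, with Adora2b closer behind it. In FPKM, Adora2b was 0.335 of Adora2a in the control library and 0.650 in the Cre-labelled library. The count ratio of Adora2b to Adora2a was 1.94 times higher in the Cre-labelled library (95% interval 1.64 to 2.30), and that of Adora3 to Adora2a 1.49 times (1.251 to 1.76). Scaling of the libraries cancels in both values.

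**Figure D2:**
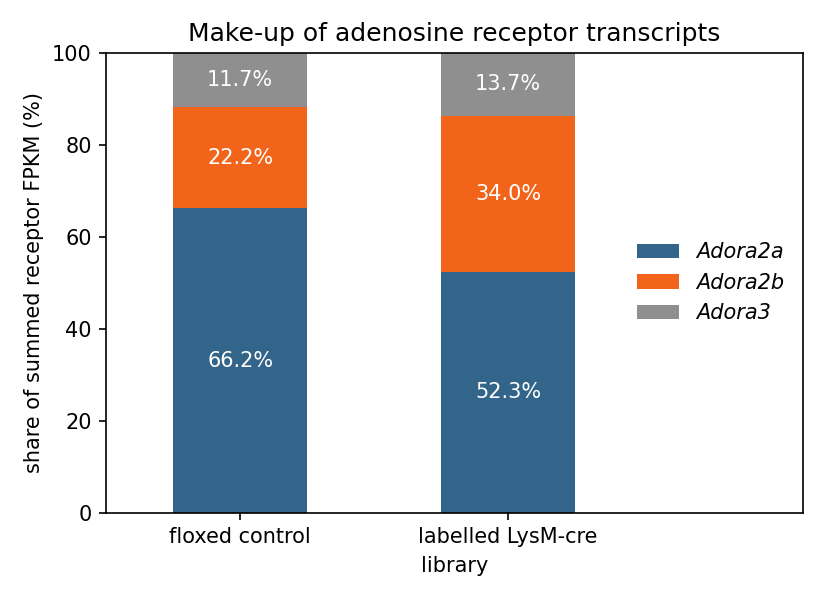
Share of the summed FPKM of the 3 receptor genes (in percent, stacked to 100) taken by Adora2a, Adora2b and Adora3 in each library. Adora2b takes 22.2% in the floxed control and 34.0% in the Cre-labelled library.

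Markers of cell types also differed between the 2 libraries. Eosinophils are known to carry the receptor encoded by Adora3. All 5 eosinophil markers were higher in the Cre-labelled library, with a summed level of 94.2 FPKM in the control library and 151.7 in the Cre-labelled library, and none was at 0. Of these 5, 3 were past the fold, namely Epx (63 and 349 counts, CPM ratio 5.55), Prg2 (2.53) and Il5ra (1.73). Ccr3, at 63.0 and 86.5 FPKM (1.37), and Siglecf (1.18) were inside the 1.5-fold range. All 9 macrophage markers were higher too, with sums of 2085 and 2324 FPKM, and Marco alone of the 9 was past the fold, at 8.83 and 25.9 FPKM (2.93). Neutrophil markers went the other way for 9 of 12, with sums of 12141 and 10552 FPKM. The 2 neutrophil markers past the fold were higher, Elane at 11.9 and 23.6 FPKM (CPM ratio 1.98) and Mpo at 8.25 and 12.5 (1.51). Monocyte markers were higher for 6 of 7, with sums of 791 and 874 FPKM. Only Cx3cr1 among them was past the fold, at 6.16 and 61.6 FPKM (9.99), and Ly6c2 was lower, at 137.3 and 121.5 FPKM (0.885). Mast cell or basophil markers were scarce, with sums of 1.98 and 1.37 FPKM, and went both ways. Fcer1a had 24 counts in the control and 0 in the Cre-labelled library, while Cpa3 had 7 and 33 (CPM ratio 4.72, 95% interval 2.05 to 12.7). Epithelial markers, which carried-over MC38 cells could hold, summed to 3.90 and 4.07 FPKM, with Krt19 at 0 counts in both libraries and Cldn7 at 0 in the Cre-labelled library. Of these 6 genes Krt18 was past the fold on the higher side, with 81 and 138 counts (1.71, 1.29 to 2.27). Epcam (153 and 115 counts, 0.753) and Cdh1 (543 and 528 counts, 0.974) were lower, and Krt8 had 27 and 17 counts. Plasma cell markers summed to 340.5 and 636.5 FPKM, a shift carried by Jchain, the joining chain of secreted antibodies, at 254.6 and 554.6 FPKM (CPM ratio 2.18), while the other 5 of the 6 had ratios below 1. Markers of erythroid cells or platelets summed to 979 and 1373 FPKM and were higher for 5 of 6. Of the markers of NK cells 3 of 5, of dendritic cells 3 of 8 and of endothelial cells or fibroblasts 3 of 5 were higher, counting those with at least 100 summed counts. Marco, Elane, Mpo, Cx3cr1, Ly6c2, Cpa3, Fcer1a, Krt18 and Jchain were singled out after their values were seen. The part of these cells in the receptor values was not tested.

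Slc29a1 was higher in the Cre-labelled library, while the genes of the enzymes that consume adenosine were nearly level. Slc29a1 (ENSMUSG00000023942, minus strand, chr17:45585200-45599604) stood at 12.7 FPKM in the control library and 15.9 FPKM in the Cre-labelled library, on 3415 and 4257 counts. It was 24.9% higher (CPM ratio 1.249, 95% interval 1.19 to 1.31), which is inside the 1.5-fold range. The antisense row Gm17080, with 275 exon bases opposite Slc29a1 exons, held 55 and 110 counts. It adds little to Slc29a1, whose ratio was 1.26 with both strands summed.

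Ada (ENSMUSG00000017697, minus strand, chr2:163726584-163750239) stood at 13.6 FPKM in the control library and 13.1 FPKM in the Cre-labelled library, on 1822 and 1755 counts. Its CPM ratio of 0.965 had a 95% interval of 0.903 to 1.03, so it was the only member whose interval included 1. Adk (ENSMUSG00000039197, plus strand, chr14:21052574-21448569) stood at 2.18 FPKM in the control library and 2.00 FPKM in the Cre-labelled library, on 1244 and 1141 counts (0.919, 0.847 to 0.997). Ada FPKM was 6.25 times that of Adk in the control library and 6.57 times in the Cre-labelled library. The deaminase gene Ada was therefore represented by more transcript per length than the kinase gene Adk. Slc29a1 and Ada had overlapping counting intervals in the control, 12.3 to 13.2 and 12.99 to 14.3 FPKM. In the Cre-labelled library those of Slc29a1 (15.4 to 16.4) lay above those of Ada (12.5 to 13.8), and the count ratio of Slc29a1 to Ada was 1.29 times higher (95% interval 1.19 to 1.40).

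Among the 5 lower members, the order by FPKM was Adora2a, Adora2b, Adk, Nt5e and Adora3 in both libraries, but which neighbours overlapped in their counting intervals differed. In the control, Adora2b at 2.00 to 2.53 FPKM overlapped both Adk at 2.06 to 2.30 and Nt5e at 1.80 to 2.02. In the Cre-labelled library, Adora2b at 3.65 to 4.36 FPKM lay above Adk at 1.89 to 2.12. There Nt5e at 1.54 to 1.75 overlapped Adora3 at 1.45 to 1.77, which in the control had been below it at 1.05 to 1.33.

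**Figure D3:**
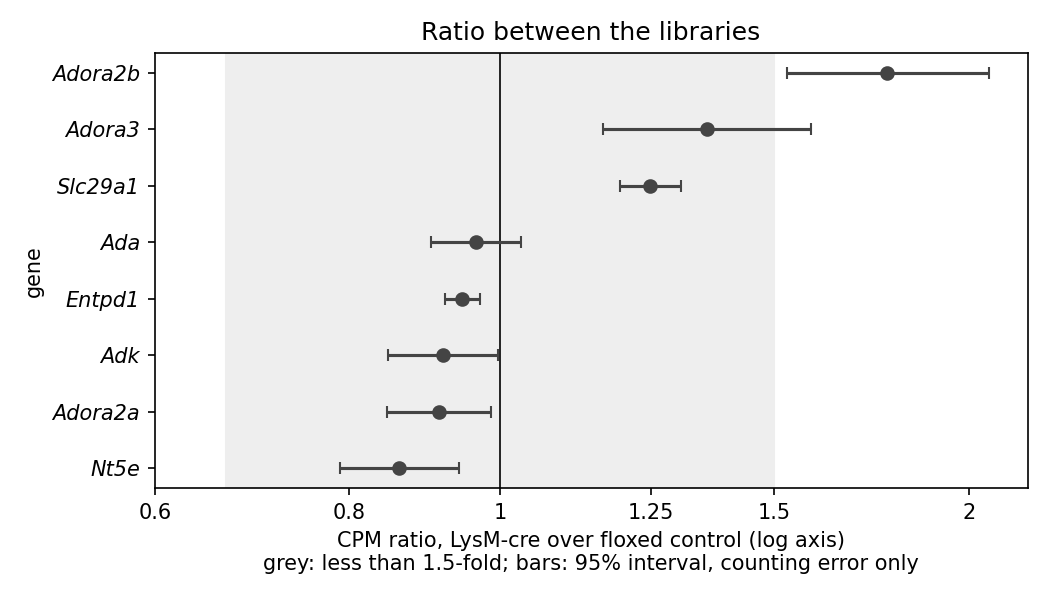
CPM ratio of each gene on a log axis, Cre-labelled library over floxed control, with exact 95% intervals for counting error only. The grey band is less than 1.5-fold; Adora2b at 1.77 lies outside it, Adora3 at 1.36 and Slc29a1 at 1.249 lie right of 1 inside it, and the other 5 genes lie between 0.862 and 0.965.

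Mettl3 places m6A mainly in short motifs of which GGACU is a common form, so the coding sequences of the members were searched for GGACT, the DNA spelling. The longest coding sequence of each gene in GENCODE M21 was used. Untranslated regions were not searched, so sites there are not counted, and the numbers do not describe whole transcripts. Adora2b and Adora3 had 2 sites each, 2.01 and 2.09 per kb. Adora2a had 1 (0.813 per kb), Entpd1 3 (1.86), Nt5e 2 (1.16) and Ada 1 (0.947), and Adk and Slc29a1 had none. The median over 21901 protein-coding genes was 1.03 per kb, and 71.6% had at least 1 site. The receptor sites are printed with their flanks on the coding strand, with GGACT in capitals. They were picked because the member past the fold, Adora2b, is a receptor gene.
Adora2b, site 1: tggccgtgGGACTcttcgcca
Adora2b, site 2: ttctgcacGGACTtccacggc
Adora3, site 1: acggagacGGACTggctgaac
Adora3, site 2: gattctttGGACTcaaacatg
Adora2a, site 1: aggggagcGGACTcgctccac
The first G of these sites is at coding positions 169 and 219 in Adora2b, 27 and 930 in Adora3 and 644 in Adora2a, counted from 1 at the A of the start codon. Methylation was not measured, and a match shows only that the letters are present.

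The rest of the adenosine and purinergic pathway was also near level. Of 123 genes in 8 lists outside the members, 98 had at least 100 summed counts. Of these, 6 were 1.5-fold or more higher in the Cre-labelled library and 2 were 1.5-fold or more lower, 8 of 98 in all, beside the 8.98% of protein-coding rows. Their median log2 CPM ratio was −0.02.

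Genes of ectoenzymes and relatives of CD39 stayed inside the 1.5-fold range in all 12 cases with enough counts, with 4 higher and 8 lower. Enpp2, the gene of autotaxin, stood at 3.73 FPKM in the control library and 3.07 in the Cre-labelled library (CPM ratio 0.824). Alpl, the gene of an alkaline phosphatase that can also release adenosine from AMP, stood at 2.1 and 1.75 FPKM (0.836). Bst1, an NAD-consuming ectoenzyme gene, stood at 15.2 and 13.2 FPKM (0.868), and Entpd7 at 1.10 and 1.27 FPKM (1.15). The equilibrative transporter gene Slc29a2 was higher, like its relative Slc29a1, at 0.387 and 1.08 FPKM on 79 and 220 counts (2.79, 95% interval 2.15 to 3.66). Slc29a3, a lysosomal relative (16.5 and 17.0 FPKM), and the concentrative transporter gene Slc28a2 (16.9 and 16.5 FPKM) were close to level.

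Inside the cell, 1 of 19 genes of AMP, adenosine and purine breakdown and salvage was past the fold. Pnp2, a purine nucleoside phosphorylase gene, stood at 3.49 FPKM in the control library and 1.77 in the Cre-labelled library, on 370 and 188 counts (0.509, 95% interval 0.425 to 0.608). Its close copy Pnp was nearly level at 5343 and 5501 counts, and how reads shared by the pair were assigned is unknown, so the Pnp2 value is uncertain. Aprt, which salvages adenine, stood at 23.6 and 17.9 FPKM (0.758), Adal, a relative of Ada, at 0.980 and 1.29 FPKM (1.32), and the guanine deaminase gene Gda at 59.3 and 50.6 FPKM (0.853).

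The ATP side of the system had 2 of 12 genes past the fold, both higher in the Cre-labelled library. P2rx1, an ATP-gated channel gene, stood at 5.47 and 8.21 FPKM (1.502, 95% interval 1.38 to 1.63), just past the threshold. With median-ratio size factors, or totals without immunoglobulin and haemoglobin rows, 5 in place of 6 of the pathway genes were past the fold on the higher side. Gja1, the connexin gene, rested on 56 and 86 counts (1.54, 1.09 to 2.19). The pannexin channel gene Panx1 stood at 4.13 and 4.94 FPKM (1.20), and the ADP receptor gene P2ry1 at 1.75 and 1.35 FPKM (0.776).

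Downstream of the receptors, 2 of 26 genes for G proteins, adenylyl cyclases, protein kinase A and cyclic AMP phosphodiesterases were past the fold. Gnai1, an inhibitory G protein gene, was higher on 47 and 121 counts (2.58, 95% interval 1.83 to 3.69). Prkar1b, a regulatory subunit gene of protein kinase A, stood at 3.26 and 4.94 FPKM (1.51, 1.39 to 1.66), while the regulatory subunit gene Prkar2b stood at 6.31 and 4.76 FPKM (0.754). The cyclase gene Adcy9 stood at 1.05 and 1.31 FPKM (1.24). Of 16 listed cyclic AMP and CREB response genes, Creb1 itself among them, 15 had at least 100 summed counts. Il10, with 56 and 32 counts, did not. Of the 15, 4 were higher and 11 lower, with 1 past the fold on each side. The median log2 ratio was −0.09. Of the 14573 rows with at least 100 summed counts, 7311 were higher and 7262 lower. Creb1, the transcription factor gene that protein kinase A acts on, stood at 3.86 and 6.03 FPKM (1.56, 1.498 to 1.63). The response genes Nr4a3 (0.685 and 0.415 FPKM, 0.608) and Sik1 (84.6 and 67.8 FPKM, 0.802) were lower, and Crem was higher at 0.769 and 0.944 FPKM (1.21). None of the 11 listed regulators of CD39 and CD73 was past the fold. The largest ratios among them were at Gfi1 (1.65 and 2.28 FPKM, 1.39), Sp1 (22.01 and 17.0 FPKM, 0.772), Smad2 (4.02 and 4.85 FPKM, 1.21) and Ahrr (0.442 and 0.394 FPKM, 0.891).

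**Figure D4:**
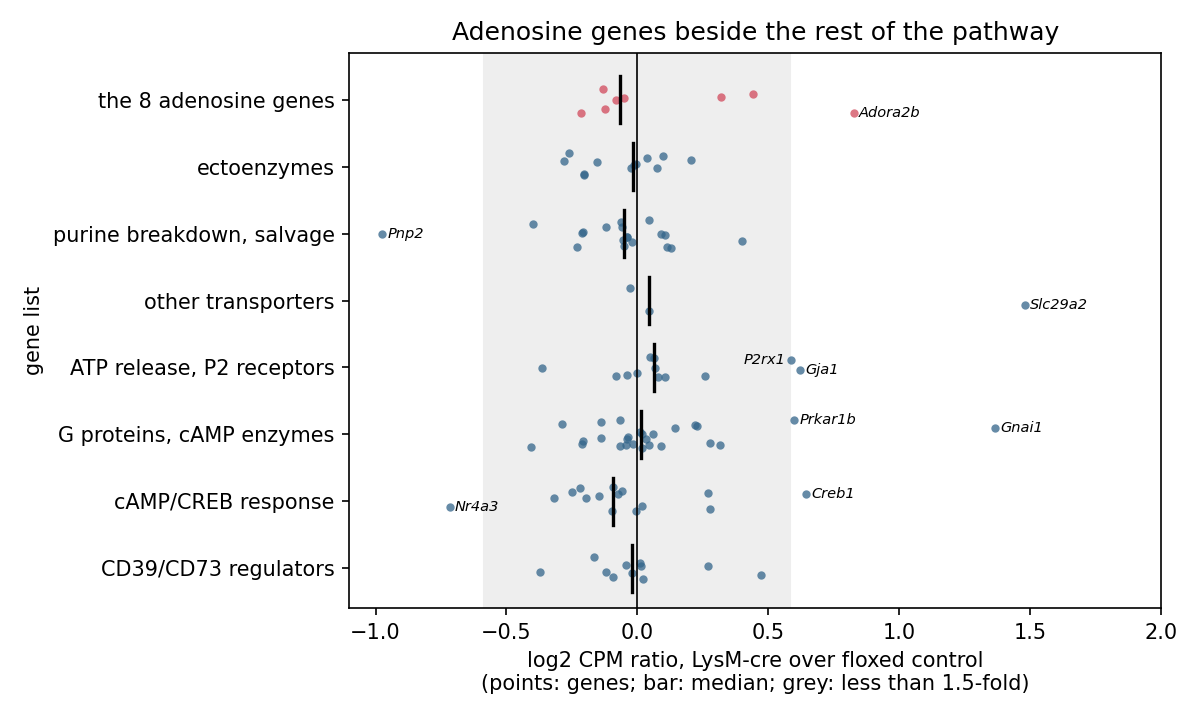
Log2 CPM ratio, Cre-labelled library over floxed control, for each gene with at least 100 summed counts in the 8 adenosine genes (red) and 7 lists of pathway genes (blue). Black bars are medians, the grey band is less than 1.5-fold, and genes outside it are named; most points in every row lie inside the band.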

How the data were processed

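The deposited count values are whole-number counts per gene row, and the FPKM columns hold the authors' own length-scaled and depth-scaled values, per the file headers. The build was mm10 and the named tools were HISAT2 2.0.4, cutadapt 1.9, DESeq2, edgeR and StringTie 1.3.4d, per the submitters' processing notes. The sources used here do not say what each did or how strand and multi-mapping reads were treated. An FPKM of 0.0001 at a count of 0 was read as 0. A further 8 value columns, from 4 libraries without a label, were left out. Groups follow the genotype label. The CPM ratio was computed from total counts with an exact (Clopper-Pearson) 95% interval, FPKM intervals are exact Poisson limits, and changes of count ratios between genes have exact conditional odds ratio intervals. A fold of 1.5 and a minimum of 100 summed counts replaced a test. PCR copies are not independent molecules, so the intervals leave out all but counting error. The members and lists were chosen with earlier results of these data known. Named genes are all members, rows overlapping them, Adora1, up to 4 genes with the largest ratio from each list, and markers. Gene coordinates are those of the table, and 7 of 8 members had the same start and end in GENCODE M21, all but Slc29a1. Promoter windows are from RefSeq (GRCm38.p6). The procedure was tested on counts simulated with counting error alone, which checks the calculation and does not cover variation between mice or preparations. Alternatives were other scalings, scales, minimums, folds and sums over overlapping rows. Computation used R 4.3.3 with edgeR 4.0.16 (TMM only) and Python 3.11.15 with scipy 1.17.1, pandas 2.3.3, matplotlib 3.10.9 and numpy 2.4.6.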

Additional observations from a re-analysis of the deposited data

How the results depend on the processing

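Adora2b was the 1 member past the fold in every alternative scaling, in FPKM with a pseudocount of 0, 0.1 or 1 and with overlapping rows summed, with a ratio from 1.54 to 1.78. It had no value at a minimum of 1000 summed counts, which its 770 counts do not reach, so 0 members were then past the fold. At a 2-fold threshold 0 members were higher, and at the lowest fold tried, a ratio higher by 25%, 2 were. Slc29a1, at 1.249, lay just under that lowest fold. Its ratio was 1.2505 from the deposited FPKM and 1.26 with both strands summed. The ratios of the 8 members stayed within their counting intervals in all alternatives that gave them a value. The pathway genes outside the members depended more on the rule. With FPKM + 1 the counts were 1 higher and 1 lower, at a minimum of 20 counts 10 and 4, at a minimum of 1000 counts 3 and 0, and with no minimum 10 and 6 (genes at 0 in 1 library left out). At 2-fold they were 2 and 0, and at the lowest fold 8 and 6. No paired analysis was possible because each genotype has 1 library, and for the same reason no library could be left out. Depth limits Adora2b and Adora3 most, since they had the fewest counts of the 8.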

Other observations

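Foxp3, the transcription factor gene of regulatory T cells, which are known to carry both CD39 and CD73, held 20 counts in the floxed control and 119 in the Cre-labelled library (CPM ratio 5.96, 95% interval 3.69 to 10.1). It was singled out after its values were seen. It was 1 of 9 T cell markers listed, and the only one of them past 1.5-fold. The other 8 had CPM ratios from 0.896 (Cd4) to 1.17 (Cd3g), and 4 of them were above 1. The 9 summed to 251.7 and 263.2 FPKM. The pseudogene row Gm8783 inside an Entpd1 intron went further than Entpd1 itself, with a CPM ratio of 0.320 (0.252 to 0.403) on 307 and 98 counts. The antisense row Gm17080 at Slc29a1 had a ratio of 2.00 (1.44 to 2.82) on 55 and 110 counts. These rows were named because they overlap members.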
